A study of Mus musculus with 22 samples.

Results

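The alpha-arrestins are 6 genes in the mouse, *Txnip*, *Arrdc1*, *Arrdc2*, *Arrdc3*, *Arrdc4* and *Arrdc5*, and they were taken by symbol from the 17931 gene symbols counted in testes RNA. All 6 had a row and all 6 had enough counts to be tested. RNA came from whole testes of 3 wild-type (WT) males and 3 males lacking MLX (MLX-KO), all aged 7 months and untreated, sampled as 3 littermate pairs that carry the numbers 1 to 3. MLX-KO animals carry germline *Mlx* alleles that lack exons 3 to 6 on both copies, and with them the bHLHLZ domain, so that germ cells and somatic cells of the testis are both mutant. Each library was read as 1 column of raw read counts, and depth ranged from 16674678 to 19742726 counts.

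Alpha-arrestins are cytoplasmic adaptors with an arrestin fold. Most carry PPxY motifs that recruit ubiquitin ligases of the NEDD4 family to membrane proteins, which are then sorted or degraded. TXNIP, the best known member, binds reduced thioredoxin and lowers glucose uptake by promoting internalization of glucose transporters. *Txnip* and its closest relative *Arrdc4* are classical targets of MondoA (encoded by *Mlxip*) and ChREBP (*Mlxipl*), glucose-sensing transcription factors that bind DNA as heterodimers with MLX at carbohydrate response elements, which are built from paired E-box-like elements.

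The upstream sequences of these known MLX targets are shown with their E-box-like elements marked. They are the 250 bases before the RefSeq transcription start on GRCm38.p6, 5′ to 3′ on the strand of the gene. Capitals mark matches to the E-box-like element CACGNG on either strand. The *Txnip* sequence lies at chr3:96557707-96557956 on the plus strand and the *Arrdc4* sequence at chr7:68749239-68749488 on the minus strand.
*Txnip*: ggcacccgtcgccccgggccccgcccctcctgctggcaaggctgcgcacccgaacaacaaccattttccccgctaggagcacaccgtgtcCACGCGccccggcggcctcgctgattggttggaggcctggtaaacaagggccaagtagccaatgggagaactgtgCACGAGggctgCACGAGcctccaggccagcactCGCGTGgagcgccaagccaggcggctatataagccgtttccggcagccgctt
*Arrdc4*: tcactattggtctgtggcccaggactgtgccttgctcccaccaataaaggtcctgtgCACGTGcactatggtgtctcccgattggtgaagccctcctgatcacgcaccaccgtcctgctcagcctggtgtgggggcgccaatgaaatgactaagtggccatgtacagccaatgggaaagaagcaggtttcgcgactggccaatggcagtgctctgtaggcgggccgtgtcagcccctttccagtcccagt

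Motifs were counted on both strands in windows from 250 bases before to 50 bases after each annotated start. The *Txnip* window held 4 matches to CACGNG, and 2 of them, both CACGAG, stood in tandem from -85 to -69 with 5 bases between them. A count of 4 or more was found in 0.396% of 32851 RefSeq promoter windows, and at least 1 match in 27.5%. The tandem, spelled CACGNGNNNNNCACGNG, was found in 16 windows of 15 genes, or 0.0487% of windows. This spelling was chosen with the *Txnip* element known, so its rarity is a description and not a test. The *Arrdc4* window held a single match, the palindromic E-box CACGTG from -193 to -188, a motif present in 7.15% of windows. The tandem was not found in the *Arrdc4* window, so no paired response element is identified in its sequence.

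The *Arrdc1* window held 2 and the *Arrdc2* window 1 match to CACGNG, all of them CACGAG, which 6.47% of windows held. At least 2 CACGAG, the number in both the *Arrdc1* and the *Txnip* window, occurred in 0.359% of windows, and 2 or more CACGNG in 7.20%. The 3 *Arrdc3* windows and the *Arrdc5* window held none. The inverted pair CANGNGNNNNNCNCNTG was found in none of the 8 windows of the family and in 0.557% of all windows. Its second element cannot match CACGAG, so it is not a looser form of the tandem. The CCAAT box, the binding motif of the general factor NF-Y, occurred 6 times in the *Arrdc4* window, a number reached by 0.0791% of windows. It occurred 3 times each in the *Arrdc2* and *Arrdc5* windows, 2 times in that of *Txnip*, at most 1 time in each *Arrdc3* window and not in that of *Arrdc1*, against at least 1 CCAAT in 37.4% of all windows. A match is a string of letters and says nothing of binding in these testes. From testes ChIP-Seq, the paper reports binding of both MLX and MAX at the *Txnip* and *Arrdc4* promoters. Those ChIP-Seq samples were not analysed here.

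**Figure D1:**
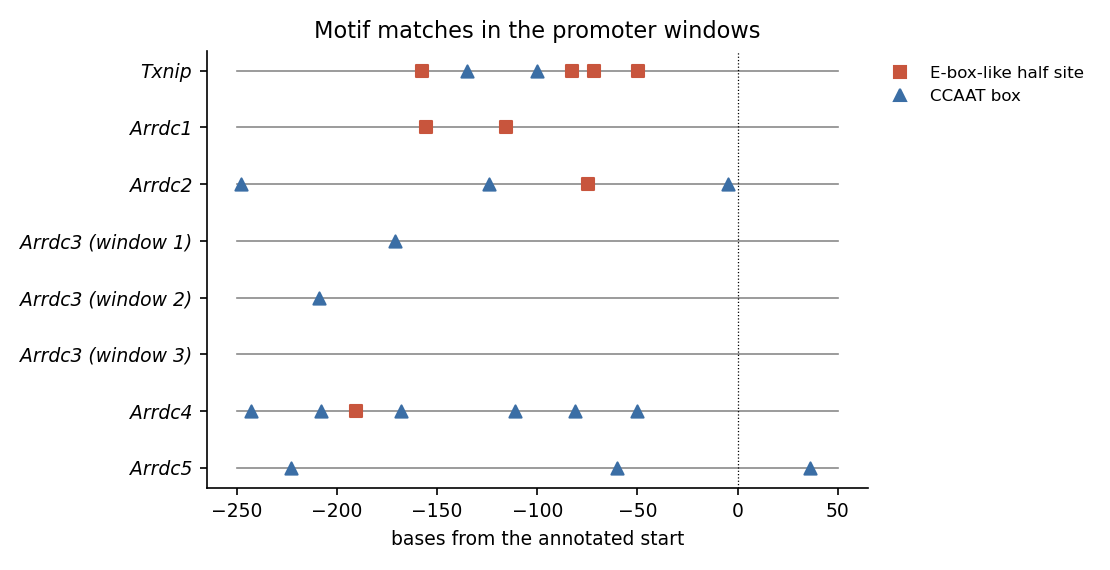
Positions of motif matches in the 8 RefSeq promoter windows of the alpha-arrestin genes, in bases from the annotated start (dotted line). Squares mark CACGNG on either strand and triangles mark CCAAT. The *Txnip* line carries 4 squares, the *Arrdc4* line 1 square and 6 triangles, and the *Arrdc3* and *Arrdc5* lines no square.

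In MLX-KO testes, *Txnip* and *Arrdc4* RNA fell, *Arrdc1* RNA rose, and the remaining 3 members did not pass the test. Fold changes were estimated with edgeR's quasi-likelihood test on the counts, with trimmed-mean (TMM) scaling for composition and Benjamini-Hochberg adjustment over all 14640 genes tested, and a gene was called at an adjusted p under 0.05. Of the family, 3 of 6 genes were called, 1 higher and 2 lower. The same test called 45.4% of all genes, 24.8% higher and 20.6% lower, so the share of the family that was called was near the background. The size of the decrease was less common: 37 of the 14640 genes, or 0.253%, had a lower log2 fold change (LFC) than *Txnip*, and 190 genes, or 1.30%, had a lower LFC than *Arrdc4*. The median LFC was -0.17 over the 6 members and 0.025 over all genes tested.

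*Txnip* was counted 967, 1204 and 1384 times in libraries WT1 to WT3 and 613, 508 and 546 times in KO1 to KO3. In CPM (counts scaled to TMM-adjusted library size and to a common total), that is 51.0, 76.6 and 78.0 for WT and 31.6, 28.1 and 28.9 in the MLX-KO libraries. Every MLX-KO library lay below every WT library, and WT1 stood well below the other WT libraries. The mean fell from 68.5 ± 15.2 to 29.5 ± 1.84 CPM (SD, n = 3 each), to 43.1% of the WT mean. The LFC was -1.21 (SE 0.14, 95% interval -1.51 to -0.91, adjusted p = 6.70e-05 from edgeR), lower in each of 3 pairs. For the protein, the paper reports less TXNIP in MLX-KO whole testes and in isolated tubule cells.

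The drop in *Txnip* was smallest in pair 1, with an LFC of -0.69 against -1.44 in pair 2 and -1.43 in pair 3. Whether the pairs differ was not tested, since each holds 1 library per genotype. Without WT1 the LFC was -1.39, and without both libraries of pair 1 it was -1.44, an alternative chosen after seeing the data. The coefficient of variation of *Txnip* CPM was 22.2% in WT and 6.24% in MLX-KO. An exact permutation test on log2 CPM gave a two-sided p = 0.1, the smallest that 3 libraries against 3 allow.

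*Txnip* lies at chr3:96557957-96561883 on the plus strand of mm10, with 3123 exon bases in 6 blocks. The antisense gene *Gm15441* overlaps it and shares 606 of these bases, 19.4% of the *Txnip* exons, and has no row in the table. Whether the counting used strand is not given in the sources used here, so reads from that stretch cannot be told apart between the genes.

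*Arrdc4*, whose product like TXNIP acts on glucose uptake and also takes part in release of extracellular vesicles, was counted 117, 82 and 100 times in WT1 to WT3 and 64, 65 and 70 times in KO1 to KO3. Its CPM was 6.17, 5.21 and 5.64 for WT and 3.30, 3.60 and 3.71 for MLX-KO. The genotypes did not overlap, and the MLX-KO libraries lay close together. Its mean was 5.67 ± 0.478 CPM for WT and 3.53 ± 0.209 CPM for MLX-KO (SD, n = 3 each), and the LFC was -0.69 (SE 0.14, 95% interval -1.0 to -0.37, adjusted p = 0.00284 from edgeR), lower in each of 3 pairs. *Arrdc4* thus kept 62.3% of its WT mean where *Txnip* kept 43.1%. The edgeR intervals of their LFC overlap, and the count ratio of *Arrdc4* to *Txnip*, which no scaling of libraries can alter, was 0.121, 0.0681 and 0.0723 for WT and 0.104, 0.128 and 0.128 for MLX-KO, with overlap at WT1. It spans chr7:68736995-68749241 on the minus strand.

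*Arrdc1* moved the other way. Its product brings TSG101 to the plasma membrane, where vesicles bud directly from the cell. It was counted 53, 30 and 43 times in WT1 to WT3 and 87, 74 and 67 times in KO1 to KO3, so its estimates rest on few reads. In CPM this was 2.79, 1.91 and 2.42 for WT and 4.49, 4.09 and 3.55 for MLX-KO, and all MLX-KO libraries were above all WT libraries. Its mean was 2.38 ± 0.445 CPM for WT and 4.04 ± 0.472 CPM for MLX-KO (SD, n = 3 each), and the LFC was 0.76 (SE 0.19, 95% interval 0.34 to 1.17, adjusted p = 0.00751 from edgeR), with KO above WT in all 3 pairs. This call was lost in DESeq2 when the pairs were fitted as a replicate block, at an LFC of 0.75 and an adjusted p = 0.0770 from DESeq2, while the block in edgeR gave an adjusted p = 0.00479. *Arrdc1* spans chr2:24925352-24935252 on the minus strand.

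The ratio of *Arrdc1* to *Arrdc4* counts compares these genes on a scale free of normalization. It restates their change relative to each other, gives the direction of neither gene and is not independent support. It was 0.453, 0.366 and 0.430 for WT and 1.36, 1.14 and 0.957 for MLX-KO, without overlap. *Arrdc4* reads outnumbered those of *Arrdc1* in each WT library and in KO3, and *Arrdc1* reads were the more numerous in KO1 and KO2.

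**Figure D2:**
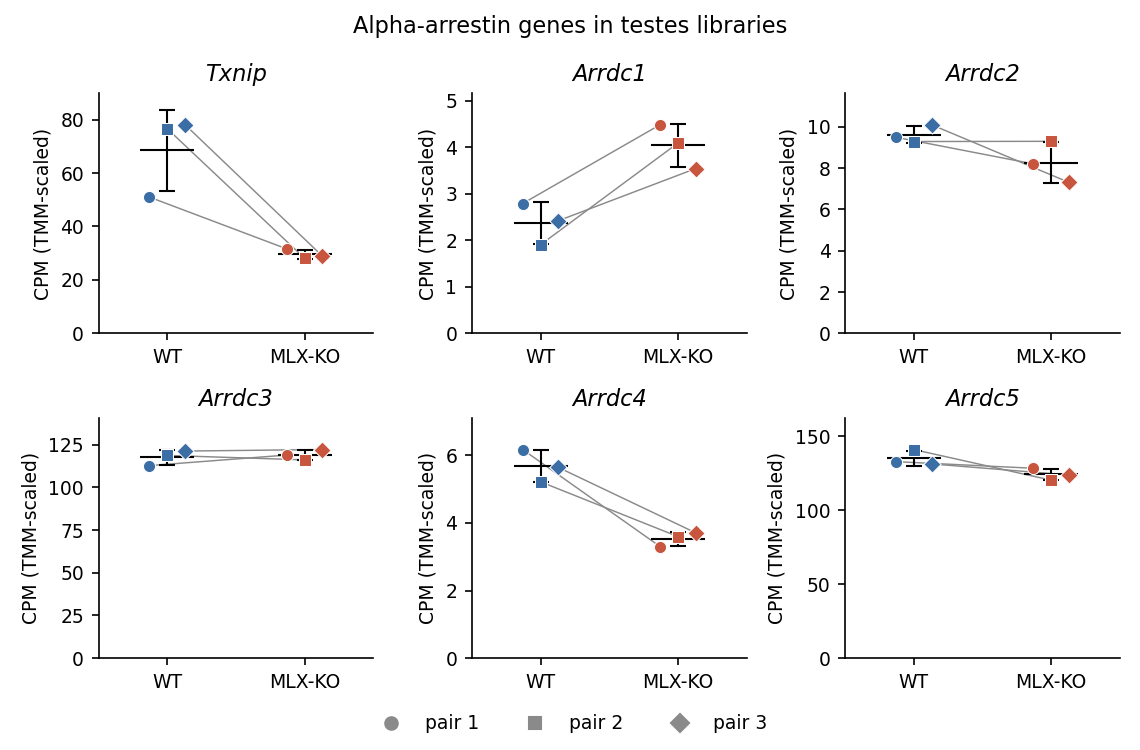
CPM of the 6 alpha-arrestin genes in each testes library, 1 panel per gene, each vertical axis from 0. Symbols mark the littermate pair, grey lines join the libraries of a pair, and black bars give the mean and SD of 3 libraries. *Txnip* and *Arrdc4* lie lower and *Arrdc1* higher in all 3 MLX-KO libraries, while *Arrdc2* and *Arrdc3* overlap between genotypes.

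*Arrdc5*, a testis-enriched member required for normal sperm formation in mice, was counted 2521, 2219 and 2330 times in WT1 to WT3 and 2490, 2176 and 2340 times in KO1 to KO3. These are 133, 141 and 131 CPM for WT and 128, 120 and 124 CPM for MLX-KO, so the groups did not overlap, by a narrow margin. The LFC was -0.12 (SE 0.050, 95% interval -0.23 to -0.011) and missed the threshold, with an unadjusted p = 0.0337 and an adjusted p = 0.0688 from edgeR. It passed without KO1 (LFC -0.14, adjusted p = 0.0239 from edgeR), without both libraries of pair 1 (-0.16, adjusted p = 0.0261 from edgeR) and with the size factors of DESeq2 in edgeR (-0.15, adjusted p = 0.0393).

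*Arrdc3*, an adaptor for ubiquitination of membrane proteins such as integrin beta4, was counted 2140, 1868 and 2152 times in WT1 to WT3 and 2307, 2100 and 2309 times in KO1 to KO3. CPM was 113, 119 and 121 for WT and 119, 116 and 122 for MLX-KO, and the groups overlapped almost entirely. Its LFC was 0.018 (SE 0.049, adjusted p = 0.782 from edgeR). The 95% interval of the fold, 0.940 to 1.09, leaves out changes of the size seen for *Txnip*, *Arrdc4* or *Arrdc1*.

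*Arrdc2*, another NEDD4 ligase adaptor, was counted 180, 146 and 179 times in WT1 to WT3 and 159, 168 and 138 times in KO1 to KO3. CPM was 9.49, 9.28 and 10.1 for WT and 8.20, 9.29 and 7.31 for MLX-KO. KO2 lay level with the lowest WT library and the other MLX-KO libraries below. The LFC of -0.22 (SE 0.12, 95% interval -0.48 to 0.038, adjusted p = 0.149 from edgeR) did not pass, and its interval still contains a fold of 0.717.

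Counting members whose genotypes did not overlap in CPM gave 4 of 6, *Arrdc1* higher and *Txnip*, *Arrdc4* and *Arrdc5* lower, against 56.2% of all genes tested, 30.3% higher and 25.9% lower. An exact permutation test gave the smallest possible two-sided p of 0.1 for these 4 genes, 0.2 for *Arrdc2* and 0.6 for *Arrdc3*. Scaling by library size alone, without TMM, moved the median LFC of all genes from 0.025 to 0.16 and the called genes from 3634 higher and 3015 lower to 5343 higher and 1268 lower. Under that scaling *Txnip* (LFC -1.07) and *Arrdc4* (-0.55) were still called lower, relative to a median that had moved up. *Arrdc3* was called higher there, at an LFC of 0.16 close to the shifted median (adjusted p = 0.0179 from edgeR), and *Arrdc5* changed sign to 0.018. With the size factors of DESeq2, *Arrdc3* changed sign to -0.0075, so neither *Arrdc3* nor *Arrdc5* has a direction that holds under every scaling.

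Count ratios to *Arrdc3* need no scaling of libraries, but they take *Arrdc3* as the reference, which is flat only under some scalings. They restate the differences relative to *Arrdc3* and are not independent support. *Txnip* reads per *Arrdc3* read numbered 0.452, 0.645 and 0.643 for WT and 0.266, 0.242 and 0.236 for MLX-KO. *Arrdc4* reads per *Arrdc3* read numbered 0.0547, 0.0439 and 0.0465 for WT and 0.0277, 0.0310 and 0.0303 for MLX-KO. Both ratios separated the genotypes. For *Arrdc5* the ratio was 1.08 to 1.19 in WT and 1.01 to 1.08 in MLX-KO, with the nearest libraries at 1.083 and 1.079.

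**Figure D3:**
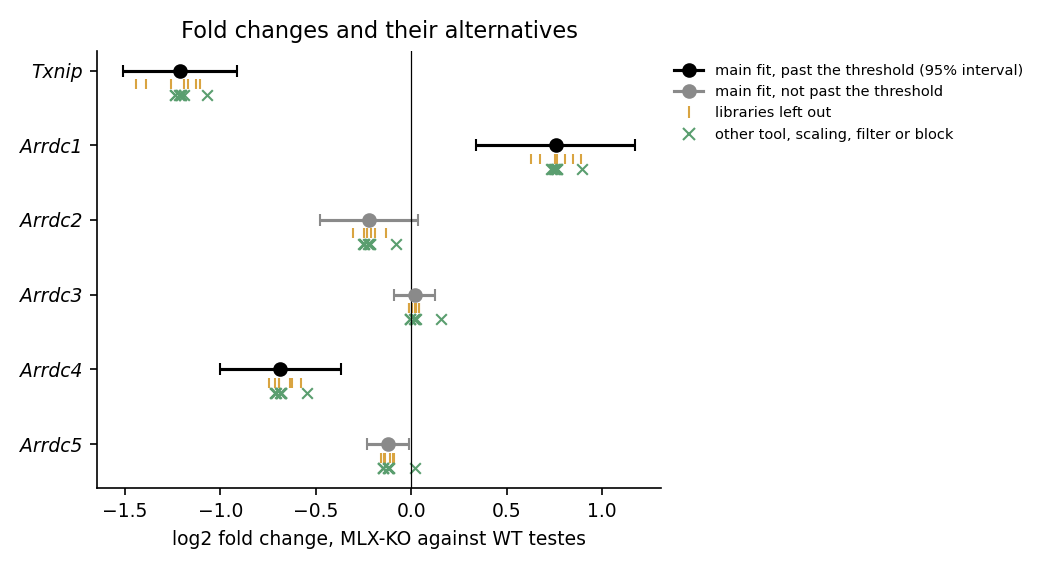
LFC of MLX-KO against WT for each alpha-arrestin gene on the horizontal axis, with its 95% interval and below it the 15 alternatives. Intervals were computed from the edgeR F statistic (black where the edgeR adjusted p was under 0.05, grey otherwise). *Txnip* and *Arrdc4* stay left of 0 and *Arrdc1* right of 0 in all 15, while *Arrdc3* and *Arrdc5* have values on both sides.

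Levels were compared between members as CPM per kb of merged exon length (GENCODE M21), a scale on which the members ranged widely. In WT testes the mean level was 128 ± 4.95 CPM per kb for *Arrdc5*, 21.9 ± 4.87 for *Txnip*, 18.8 ± 0.698 for *Arrdc3*, 2.98 ± 0.130 for *Arrdc2*, 1.40 ± 0.118 for *Arrdc4* and 0.946 ± 0.177 for *Arrdc1* (SD, n = 3 each). Only *Txnip* and *Arrdc3* overlapped among neighbours of this order, since WT1 had less *Txnip* than *Arrdc3* and the other WT libraries more. In MLX-KO testes the order was *Arrdc5* (118 ± 3.83), *Arrdc3* (19.0 ± 0.484), *Txnip* (9.46 ± 0.590), *Arrdc2* (2.56 ± 0.308), *Arrdc1* (1.61 ± 0.188) and *Arrdc4* (0.875 ± 0.0518), with no overlap between neighbours. *Txnip* had moved below *Arrdc3*, and *Arrdc1* and *Arrdc4* had exchanged places.

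Per exon length, *Arrdc5* made up 71.4% to 75.9% of the summed level of the family in WT and 77.6% to 78.0% in MLX-KO libraries. *Txnip* made up 9.85% to 14.3% in WT and 6.12% to 6.50% in MLX-KO libraries. The exon length used for *Arrdc5*, 1056 bases, is the shortest of the 6, and an incomplete gene model would raise its level on this scale.

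**Figure D4:**
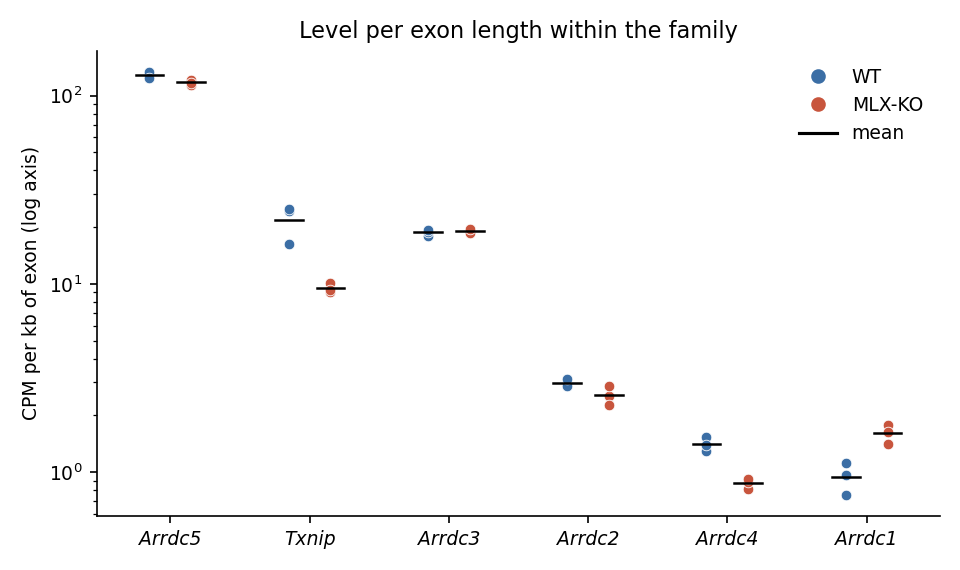
Level of each alpha-arrestin gene in CPM per kb of exon (log axis), with 1 point per library (3 WT, 3 MLX-KO) and bars at the means. *Arrdc5* stands above all others, *Txnip* overlaps *Arrdc3* in WT but lies below it in MLX-KO, and *Arrdc1* and *Arrdc4* exchange order.

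Whole testes hold many cell types, and in such tissue fewer cells of a type and less RNA per cell cannot be told apart. No gene of the 9 marker lists was at 0 in all libraries. The same held for all 17931 symbols counted, so this does not check the tissue label. Markers of elongating spermatids, the haploid cells that condense their chromatin, were lower in 12 of 12 genes (median LFC -0.52), with a summed level of 29527 to 30518 CPM in WT and 18264 to 21950 CPM in MLX-KO. Round spermatid markers were lower in 10 of 10 (median LFC -0.26) and spermatocyte markers in 8 of 10 (median LFC -0.16), while 2 of 9 spermatogonial markers were higher and 1 lower. Scaled by library size alone, 5 of the round spermatid and 1 of the spermatocyte markers passed, and the spermatocyte count was also 3 without WT1, 2 without KO2, 4 without KO3 and 5 with the replicate block in DESeq2. That block called 1 spermatogonial marker in place of 3. Markers of Leydig cells were higher in 9 of 9 (summed level 824 to 846 CPM in WT, 1786 to 2302 CPM in MLX-KO) and of Sertoli cells in 10 of 11 (1032 to 1076 against 1522 to 1806 CPM). Macrophage markers were higher in 9 of 10 and lower in 1, *Aif1*, the most abundant of them, and their summed level overlapped (451 to 469 CPM in WT, 456 to 496 CPM in MLX-KO). Endothelial markers were higher in 2 of 7, with 4 called when scaled by library size alone (summed level 39.8 to 49.9 against 55.0 to 61.9 CPM). Peritubular myoid markers were higher in 4 of 6 and lower in 1, *Actg2*, the most abundant of them, with overlapping sums (310 to 369 against 308 to 325 CPM). Mean WT levels were 376 CPM for *Aif1* and 267 CPM for *Actg2*, and the next markers of their lists stood at 37.8 and 38.0 CPM. *Aif1* and *Actg2* thus make up most of the macrophage and myoid sums, and the cell source of their reads was not tested. Of all genes tested, 24.8% were called higher and 20.6% lower.

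*Txnip* had a lower LFC than each of the 84 marker genes tested, of which the lowest was *Tnp2* at -0.82. Of the 84, 4 had a lower LFC than *Arrdc4*, all markers of elongating spermatids (*Prm1*, *Prm2*, *Tnp1* and *Tnp2*). The lowest of the 43 markers of Sertoli, Leydig, macrophage, endothelial and myoid cells was *Actg2* at -0.39, above *Arrdc4*. The part of cell composition in the changes of *Txnip*, *Arrdc4* and *Arrdc1* was not tested.

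The MLX and MAX network list, with MLX, MAX and some of their partners but without *Mycn*, had 11 genes. Of these, 4 rose and 7 did not pass, against 24.8% of all genes called higher. *Mlxipl* rose by an LFC of 1.04 (adjusted p = 0.000231 from edgeR), with 138, 83 and 117 counts across WT1 to WT3 and 216, 259 and 265 across KO1 to KO3. *Mlxip* rose by 0.42, *Max*, the partner of MYC, by 0.43 and *Mga* by 0.17. The RNA of *Mlxip* and *Mlxipl*, which encode the partners of MLX at *Txnip*, thus moved opposite to that of *Txnip* and *Arrdc4*. At the protein level, the paper reports less MondoA and ChREBP in MLX-KO whole testes and in isolated tubule cells. The counts used here cover RNA alone, so they do not show a rise of either partner protein. *Mlx* itself was counted 128, 96 and 98 times in WT1 to WT3 and 94, 109 and 102 times in KO1 to KO3 (LFC -0.18, adjusted p = 0.326 from edgeR). The deletion leaves other exons of *Mlx* in place and the count covers the whole gene, so it does not check the genotypes, and directions follow the labels.

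Genes known as targets of MondoA or ChREBP in other tissues moved mostly opposite to *Txnip*. Of 22 listed genes outside the family, 15 were tested, and 11 rose and 1 fell. Of all genes tested, 24.8% were called higher and 20.6% lower. The median LFC of the list was 0.54 against 0.025 over all genes. Whether these genes are targets in testes, and the part of cell composition in their changes, was not tested. *Bhlhe40*, a circadian repressor, rose by an LFC of 1.63 (SE 0.31), *Thrsp*, a lipogenic factor, by 1.47 (SE 0.39) and *Scd1*, a fatty acid desaturase, by 1.22 (SE 0.14). *Bhlhe40* was counted 137, 84 and 110 times in WT1 to WT3 and 235, 567 and 282 times in KO1 to KO3, highest in KO2. *Thrsp* had few reads, 14, 11 and 37 in WT1 to WT3 and 48, 49 and 88 in KO1 to KO3. *Acaca*, which encodes acetyl-CoA carboxylase, fell by 0.26 on the log2 scale. *Klf10*, which like *Txnip* is induced by glucose, was counted 233, 214 and 226 times in WT1 to WT3 and 204, 220 and 212 times in KO1 to KO3 (LFC -0.19, adjusted p = 0.140 from edgeR).

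The thioredoxin system, which TXNIP inhibits, moved in both directions. Of 9 genes of the thioredoxin system, 3 rose and 4 fell, where 24.8% of all genes were called higher and 20.6% lower. *Txn1*, the thioredoxin that TXNIP binds, was counted 203, 160 and 187 times in WT1 to WT3 and 461, 505 and 497 times in KO1 to KO3, an LFC of 1.31 (adjusted p = 3.32e-06 from edgeR) without overlap. *Txnrd2* and *Txnrd1*, the mitochondrial and cytosolic thioredoxin reductases, rose by 0.68 and 0.32. The 4 that fell were *Nme8* (LFC -0.41), *Txndc8* (-0.37), *Txndc2* (-0.31) and *Txnrd3* (-0.31), which are known as the thioredoxins and the reductase of spermatids. The mitochondrial thioredoxin *Txn2* (-0.12) and *Txnl1* (-0.02) did not pass.

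Of the 9 ubiquitin ligases of the NEDD4 family, which alpha-arrestins recruit through PPxY motifs, 2 rose and 3 fell, a share near the 45.4% of all genes that were called. *Nedd4l* rose by an LFC of 0.80 and *Nedd4* by 0.69, while *Wwp2* (-0.39), *Hecw1* (-0.28) and *Smurf2* (-0.23) fell. *Itch*, *Wwp1*, *Smurf1* and *Hecw2* lay between -0.10 and 0.095 and did not pass. The list median was -0.03.

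Of 9 clients and partners, 6 were tested, and 2 rose, against 24.8% of all genes called higher. Scaling by library size alone called 4 of the clients and partners. *Ddit4*, a stress-induced inhibitor of mTORC1 whose product binds TXNIP, rose by an LFC of 0.89, and *Slc11a2*, an iron transporter, rose by 0.47. The glucose transporter gene *Slc2a1* was counted 163, 119 and 156 times in WT1 to WT3 and 188, 179 and 208 times in KO1 to KO3 (LFC 0.29), and its adjusted p = 0.0502 from edgeR just missed the threshold. *Tsg101*, the partner of ARRDC1, had an LFC of -0.04 and did not pass. *Avpr2* and *Nlrp3* had at most 6 counts in any library and were not tested. Of 7 other arrestin-fold genes tested, *Sag*, *Arrb2*, *Vps26b* and *Dscr3* rose, by 0.63, 0.59, 0.41 and 0.22, and *Vps26a* fell by 0.25 on the log2 scale. The replicate block in DESeq2 called 3 of the 7 in place of 5, and the main fit called 45.4% of all genes.

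**Figure D5:**
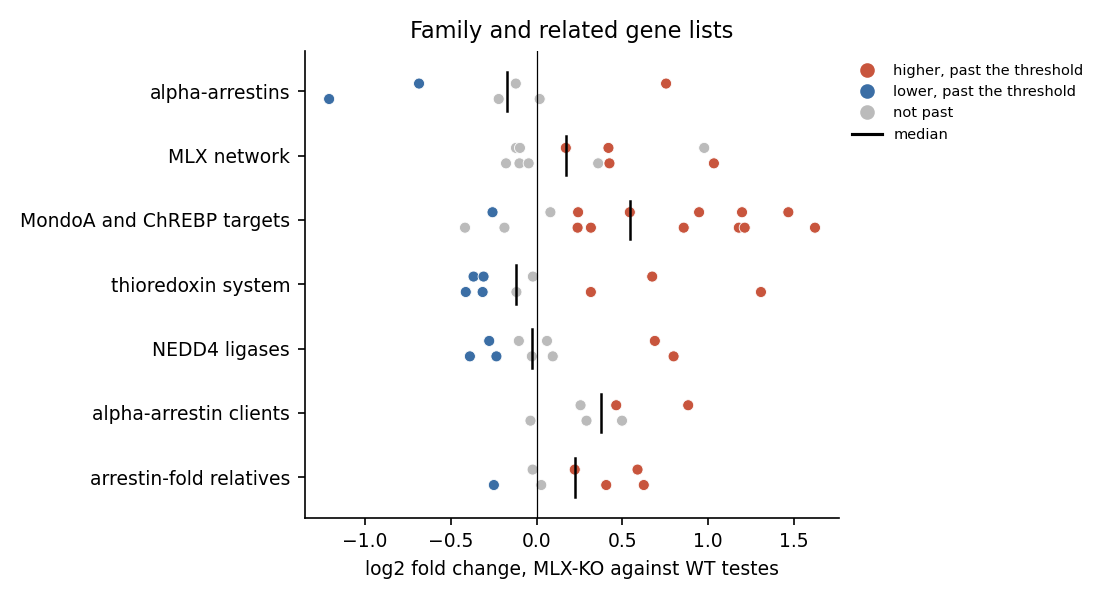
LFC of MLX-KO against WT on the horizontal axis for each tested gene of the alpha-arrestin family and of the 6 related lists. Red and blue points passed the threshold as higher and lower, grey points did not, and black bars mark medians. *Txnip* is the leftmost point of all lists, and the targets of MondoA and ChREBP, known from other tissues, lie mostly to the right of 0.

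The genes with the profile most like that of *Txnip* were taken by the distance between log2 CPM values centred per gene, over the 6 libraries. They were *Rhox11*, a homeobox gene of the X-linked *Rhox* cluster (distance 0.289, LFC -1.17), *Olfr31*, an olfactory receptor gene (0.289), *6030419C18Rik* (0.319) and *Prokr1*, a prokineticin receptor gene (0.402). All were rarer than *Txnip*: *Rhox11* was counted 49, 49 and 70 times in WT1 to WT3 and 31, 24 and 25 times in KO1 to KO3, and *Olfr31* between 4 and 17 in any library. For *Arrdc4* they were *Tmsb15a*, a thymosin beta gene (distance 0.117, LFC -0.73), *Gm20867* (0.137), *1700029I15Rik* (0.164) and *Gapt* (0.172). *Arrdc4* itself lay at a distance of 0.936 from *Txnip*, and within the family *Arrdc3* and *Arrdc5* had the nearest profiles, at 0.211.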

How the data were processed

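Whole testes RNA of 3 WT and 3 MLX-KO males was measured in 6 libraries. The authors deposited 1 table of raw counts, whole numbers of reads per gene symbol, made after paired-end sequencing and TopHat alignment to mm10. The counting tool, annotation and strand setting are not given in the sources used here, and the processing notes also list DESeq2. The deposited table further holds the authors' own comparison, with a mean normalized signal, log2 fold changes and their errors, a test score and p-values. Those columns were not used. The 16 ChIP-Seq samples were not analysed here.

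Of 17933 rows, 2 repeated another row and were dropped, leaving 17931 symbols. edgeR 4.0.16 in R 4.3.3 tested 14640 genes passing its filter (minimum count 10) with TMM scaling, genotype as the only term, two-sided tests and Benjamini-Hochberg adjustment over all genes tested. CPM values use TMM-scaled library sizes, and centred profiles a prior count of 2. TMM factors were 0.944 to 0.961 in WT and 1.02 to 1.07 in MLX-KO libraries, and library totals were 16674678 to 19742726 counts, which makes counting error matter mainly for *Arrdc1* and *Arrdc4*. A chi-square test of counts gave 2.73 to 8.26 per degree of freedom between libraries of a genotype, above sampling noise, so none was a duplicate. KO1 stood apart, at 8.26 from KO2 and 8.25 from KO3, against 2.73 between KO2 and KO3 and 2.98 to 4.26 within WT. Without KO1, 7395 genes were called, against 6649 in the main fit and 5130 to 5807 without any other library.

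The labels and methods tie equal numbers to littermate pairs. Deviations from the group means correlated at 0.145, 0.0363 and 0.121 between paired libraries and at most at 0.0330 between others. The pair as a replicate block was an alternative, with DESeq2 1.42.0, its size factors, library size alone, upper-quartile scaling, no filter, at least 1 CPM in 3 libraries and each library left out. Leaving out pair 1 was added after seeing the data.

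The members and lists were chosen with earlier results of these data known. Named genes are the 6 members, *Mlx*, the 4 nearest profiles of *Txnip* and *Arrdc4*, the 3 largest called changes in each list, and genes in counts of 5 or fewer. Others (*Klf10*, *Slc2a1*, *Tsg101*, *Txn2*, *Txnl1*, untested clients, ligases that did not pass, *Aif1*) were picked after their values were seen. Vps26c was read under its older symbol *Dscr3*, and *Tkfc* and *Arr3* matched no row. 1 listed client is not reported here. Exon lengths came from GENCODE M21, promoter windows (6 of 6 members, 8 windows) from RefSeq on GRCm38.p6, read with samtools 1.23.1 and pandas 2.3.3. The code was tested on simulated data: with 100 genes changed by 1 and 100 by 0.6 on the log2 scale, edgeR recovered 84 and 61, and called 19 of the unchanged genes among 14538.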

Additional observations from a re-analysis of the deposited data

How the results depend on the processing

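*Txnip* and *Arrdc4* passed the threshold in the same direction in 15 of 15 alternatives (LFC from -1.44 to -1.07 and from -0.74 to -0.55). *Arrdc1* had a positive LFC in 15 and passed in 14 (0.63 to 0.89), the exception being the replicate block in DESeq2, where 0 members were called higher at an adjusted p under 0.05 from DESeq2 (1 at an unadjusted p under 0.05; 1 with the block in edgeR, where the *Txnip* LFC was -1.19). That block called 2249 genes higher over all genes and changed no other call among the 6 members. *Arrdc2* passed in none (-0.31 to -0.08). Library size alone called 1268 genes lower and 2 members higher, with *Arrdc5* at 0.018. *Arrdc3* had the opposite sign with DESeq2 size factors in edgeR (-0.0075), in DESeq2 (-0.0074), with the replicate block in DESeq2 (-0.0072), without WT1 (-0.013) and without pair 1 (-0.0126). Leaving out 1 library at a time moved it between -0.013 and 0.042. Under these fits, 3 to 4 members were called, 1 of them higher and 2 to 3 lower. The causes were not tested beyond what each alternative leaves out. With 3 animals per genotype and 30 to 117 counts per library for *Arrdc1* and *Arrdc4*, small changes in these genes are not detectable.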
